A study of Mus musculus with 4 samples.

Results

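Chemokines and interleukins are secreted signalling proteins, and this set held 65 genes of the 18193 that a single-symbol probe set represented on the array. They were chosen by symbol alone: Ccl, Cxcl and Il followed by a number (with a, b or f for some interleukins), Cx3cl1, Csf1, Csf2, Csf3, Lif, Tslp, Tnf and Mif. The 65 genes had 95 probe sets, and for the 20 genes with more than 1 the probe set with the highest mean over the arrays was used. Each of 4 Affymetrix mouse arrays held RNA of a different culture. The cells were primary mammary epithelial cells of Deaf-1-/- females, immortalised with a retrovirus for HPV16 E6/E7, from which 2 clones, C1 and E1, were picked. The study describes their source both as a single mouse and as mice. Each clone received either an empty retrovirus, called control, or one encoding Deaf-1, and was harvested after a 48 hour puromycin selection. All 4 cultures therefore came from Deaf-1-null cells, carried the viral oncogenes and had been through puromycin, and each clone with each retrovirus was 1 array. Every p-value below measures the spread between arrays of these 2 clones only.

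Values are RMA expression on a log2 scale, so a difference of 1 is a doubling of signal. Because oligonucleotides differ in how strongly they bind, a value was compared between arrays for the same probe set and was not used to rank genes. Values of all probe sets ran from 1.75 to 13.63, array medians lay between 3.77 and 3.87, and arrays of the same clone correlated at 0.994 (C1) and 0.992 (E1), against 0.976 to 0.983 between clones. Deaf1 itself checked the labels: its probe set read 5.01 and 4.91 in the control arrays of C1 and E1 and 6.73 and 6.25 with the Deaf-1 retrovirus, so the null control arrays were also above the background described below. No source used here says whether that probe set lies in the part of the gene that was deleted.

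Chemokines are small proteins that steer the migration of leukocytes through receptors coupled to G proteins. They are named for the spacing of their first cysteines, CC, CXC or CX3C, and CXC chemokines with an ELR motif attract neutrophils. Interleukins and colony-stimulating factors act on other receptor classes and control the growth, survival and activity of immune and stromal cells. In the mammary gland, Csf1 is known for its role in recruiting the macrophages that accompany ductal growth, and Cxcl12 is a typical product of stromal fibroblasts. Many genes of both families are transcribed in response to NF-kB.

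The labelled cell type was compared with marker genes before the set was read. Of 7 epithelial markers, Cdh1, Krt18 and Krt14 were below background on every array, Krt8 passed on the 2 E1 arrays only, and Epcam, Krt5 and Krt19 passed on all 4, with Epcam between 5.81 and 6.33. The 7 fibroblast and stromal markers (Col1a1, Col1a2, Col3a1, Pdgfra, Thy1, Vim, Dcn) lay between 10.67 and 13.63 on every array. The pan-leukocyte gene Ptprc, and Adgre1, Itgam and Lyz2 of macrophages and myeloid cells, were below background on all 4 arrays, whereas Csf1r, Cd14 and Cd3e (3 of 8 leukocyte markers) were above it. Cd68 of macrophages passed on the Deaf-1 array of C1 alone, at 3.82. Of 4 endothelial markers, Tek (6.38 to 7.29) and Kdr (4.20 to 4.24) passed on every array, and Pecam1 and Cdh5 on none. The data thus went against the epithelial label, and the cultures are called by clone here.

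A background was set from olfactory receptor genes (Olfr), which sense odours and are not expected in these cells. The 95th percentile of 43 Olfr probe sets over the 4 arrays was 3.78, and the highest single Olfr value was 4.28. By this measure 20 of the 65 genes (30.8%) were above background on all 4 arrays, 7 on some and 38 on none, while 61.1% of all genes on the array passed on all 4. Of the 20, 12 were also above the highest Olfr value on every array. None of 38 Olfr genes passed on all 4. Between 49.9% and 51.7% of probe sets were above background on any array.

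**Figure D1:**
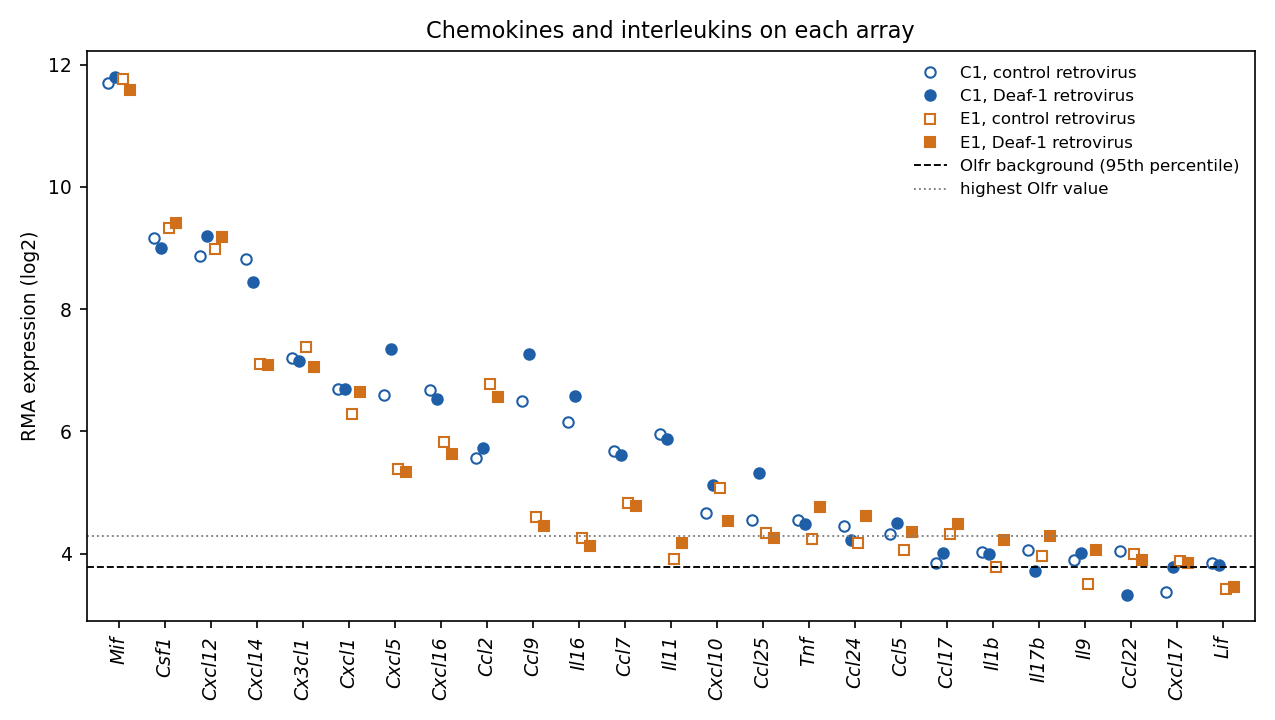
RMA expression (log2) of 25 chemokines, interleukins and related cytokines on each of the 4 arrays, with circles for clone C1, squares for E1, open symbols for the control retrovirus and filled symbols for Deaf-1. The dashed line is the Olfr background of 3.78 and the dotted line the highest Olfr value of 4.28. For 10 of the 25 (Cxcl14, Cxcl1, Cxcl5, Cxcl16, Ccl9, Il16, Ccl7, Il11, Ccl25 and Lif) both C1 arrays lie above both E1 arrays, and for 4 (Csf1, Ccl2, Ccl17 and Cxcl17) below, while 28 of the 65 genes and 47.1% of all probe sets separated the clones in either direction.

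Of the 6 CXC and CX3C chemokines outside the neutrophil and interferon types, 4 were above background on all arrays. These were Cxcl12, Cxcl14, Cxcl16 and Cx3cl1, the last 2 of which are made as membrane-anchored proteins. Of the 5 ELR chemokines only Cxcl1 and Cxcl5 passed, and Cxcl2, Cxcl3 and Cxcl15 were below background on every array. Of the interferon-type group, which acts on T cells through Cxcr3, Cxcl10 passed while Cxcl9 and Cxcl11 did not. Among 17 CC chemokines, 7 passed: Ccl2, Ccl7, Ccl9, Ccl25, Ccl24, Ccl5 and Ccl17. Ccl2 and Ccl7 draw monocytes, Ccl25 draws developing T cells, Ccl5 acts on T cells and monocytes, and Ccl17 is a ligand of Ccr4.

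Among interleukins and other cytokines, Il11 of the IL-6 family, Il1b of the IL-1 family and Il16, a secreted fragment of a larger PDZ protein, passed on all 4 arrays, as did Mif, Tnf and the macrophage growth factor Csf1. No member of the IL-10 group (3 genes) or the IL-12 group (3 genes) passed on any array. Il6 and Il1a were below background throughout. Just inside the limit, Il1b had its lowest array at 3.79. Just outside it, Il17b missed on 1 array, at 3.71.

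Another 5 genes were above background on both arrays of a single clone. Il9, a T cell cytokine, passed on both C1 arrays and on 1 of E1. Lif, a cytokine of the IL-6 family, read 3.85 and 3.82 in C1 but 3.42 and 3.45 in E1. Its other probe set, 1421207_at, read 3.42 to 3.53, below background on every array. Il17b, Ccl22 and Cxcl17 passed on both E1 arrays and 1 of C1. By the probe sets used, values of the 5 genes over the 4 arrays lay between 3.32 and 4.29. The Olfr 95th percentile of single arrays ran from 3.59 to 4.08. The macrophage factor Il34 passed on 2 arrays, 1 of each clone, and Ccl4 on 1.

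The study set cells given Deaf-1, a DNA-binding regulator of transcription, against cells without it to find genes under its control. For that comparison the clones served as replicates, 2 arrays against 2. No chemokine or interleukin reached an unadjusted p under 0.01 in limma. Over all 45037 probe sets 5 did, 0.0111% of those tested, and 0 had a Benjamini-Hochberg adjusted p under 0.05. At an unadjusted p under 0.05 limma gave 2 genes of the set and 195 probe sets in all. With the clone as a block, the genes under 0.01 remained 0 and 1 was under 0.05. Over all probe sets these numbered 11 and 394. Differences of the 65 genes between Deaf-1 and control ran from -0.41 to 0.43 on the log2 scale, with a median of 0.03 (-0.004 over all probe sets) and a median size of 0.12 (0.096 over all).

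The 2 genes under 0.05 were Csf2, which drives granulocyte and macrophage production, and Tslp, an epithelial alarm cytokine. They fall outside the naming rule and were chosen after their values were seen. The Csf2 values lay between 2.80 and 3.38 and those of Tslp between 2.37 and 2.85, below background on every array, and each had a limma adjusted p of 1. No size of difference is given for signals below background.

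The direction of change was then compared between the clones. Of the 65 genes 29 (44.6%) had changes of the same sign in C1 and E1, 15 upward and 14 downward, where 39.3% of all probe sets did so. Among the 20 genes above background, 7 had the same direction: Cxcl12, Ccl5 and Ccl17 were higher with Deaf-1 in both clones, and Cxcl14, Cx3cl1, Cxcl16 and Ccl7 lower. Cxcl12, the ligand of Cxcr4 and Ackr3, read 8.87 with control and 9.20 with Deaf-1 in C1, and 8.98 and 9.19 in E1. Both Deaf-1 arrays were above both controls, yet the difference of 0.27 had an SE of 0.15 and did not reach an unadjusted p under 0.05 in limma (moderated t 1.87). Cx3cl1 differed by -0.19 (SE 0.16). Other probe sets above background on at least 3 arrays were split. Sharing these directions were 1417574_at of Cxcl12 (0.55 in C1 and 0.11 in E1) and 1415804_at of Cx3cl1 (-0.07 and -0.32). The rest did not share them. For Cxcl12, 1439084_at changed by -0.48 in C1 and 0.20 in E1, and for Cxcl14, 1418457_at by -0.13 and 0.03. For Cxcl16, 1449195_s_at changed by 0.65 and -0.36, with its E1 Deaf-1 array below background. With the mean of all probe sets of a gene, the differences for Cxcl12, Cxcl14, Cxcl16 and Cx3cl1 were 0.15, -0.13, -0.01 and -0.06. The Cx3cl1 mean included 1421610_at and 1441884_x_at, each below background on every array.

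Larger changes were seen in 1 clone at a time. In C1, Ccl9 went from 6.49 with control to 7.27 with Deaf-1, Cxcl5 from 6.59 to 7.34 and Ccl25 from 4.56 to 5.32. In E1 the same genes changed by -0.14, -0.05 and -0.08. Cxcl10 had opposite signs, 0.47 in C1 and -0.55 in E1, while Tnf changed by -0.06 and 0.53. Changes over 0.5 in size were found for 5 of the 65 genes in C1, 1 of them below background on every array, where 5.18% of all probe sets had one. In E1 they were found for 6, 3 of them below background on every array, against 8.93% of all probe sets. A single array of each clone and retrovirus gave no estimate of error for a change within a clone.

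**Figure D2:**
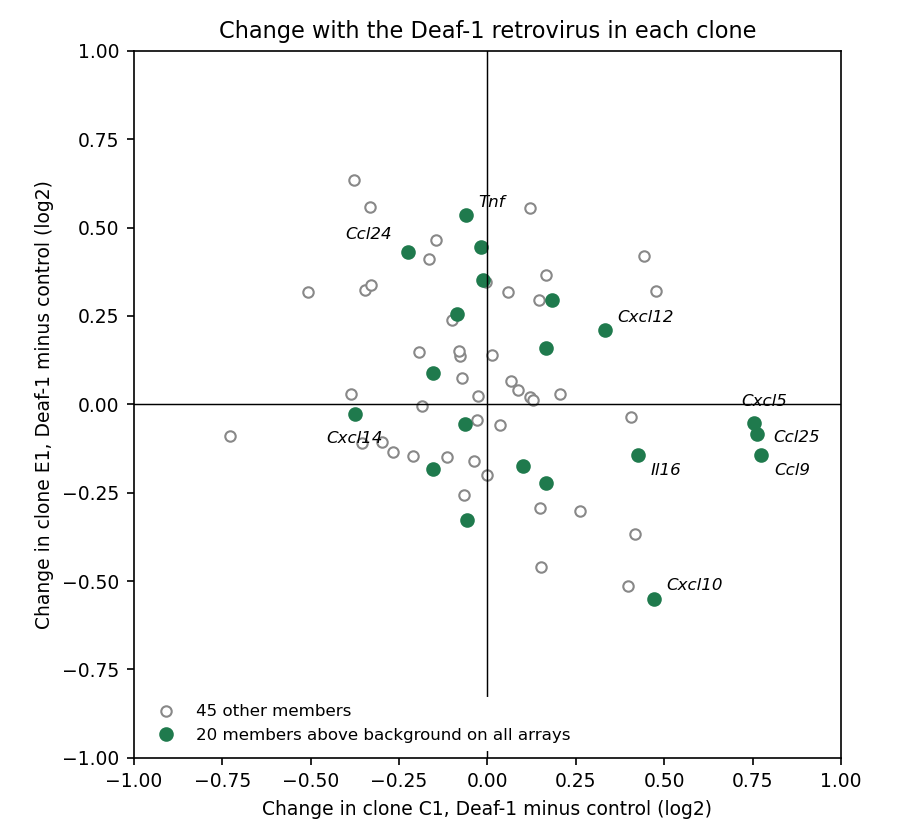
Change with the Deaf-1 retrovirus on the log2 scale, 1 point per gene. The horizontal axis is the difference between the arrays of C1 and the vertical axis that between the arrays of E1, each Deaf-1 minus control. Filled points are the 20 genes above background on all 4 arrays and open points the other 45. Only 7 of the filled points fall in the upper right or lower left parts of the plot, where both clones share a direction.

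Because the clones stood as replicates, the gap between them is the spread against which Deaf-1 was judged. Of the 65 genes, 9 had an unadjusted limma p under 0.01, 8 lower in E1 and only Ccl2 higher. Of the 9, 8 were above background on all 4 arrays, 7 lower and 1 higher in E1, and Cxcl3 was below it on all 4. Over all probe sets 5.38% were under that limit in either direction and 2.83% were lower in E1. None of the 65 had an adjusted p under 0.05 in the model with a term for the retrovirus, which leaves 1 residual degree of freedom, and 0.109% of all probe sets (49) had one. At an unadjusted p under 0.05 there were 12 of the 65, and 6502 of all 45037 probe sets. Without the retrovirus term the same 9 genes had an adjusted p under 0.05, where 5.12% of all probe sets did. The median E1 minus C1 difference was 0.01 over the set and 0.0045 over all probe sets, and the median size of the difference was 0.18 and 0.16.

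**Figure D3:**
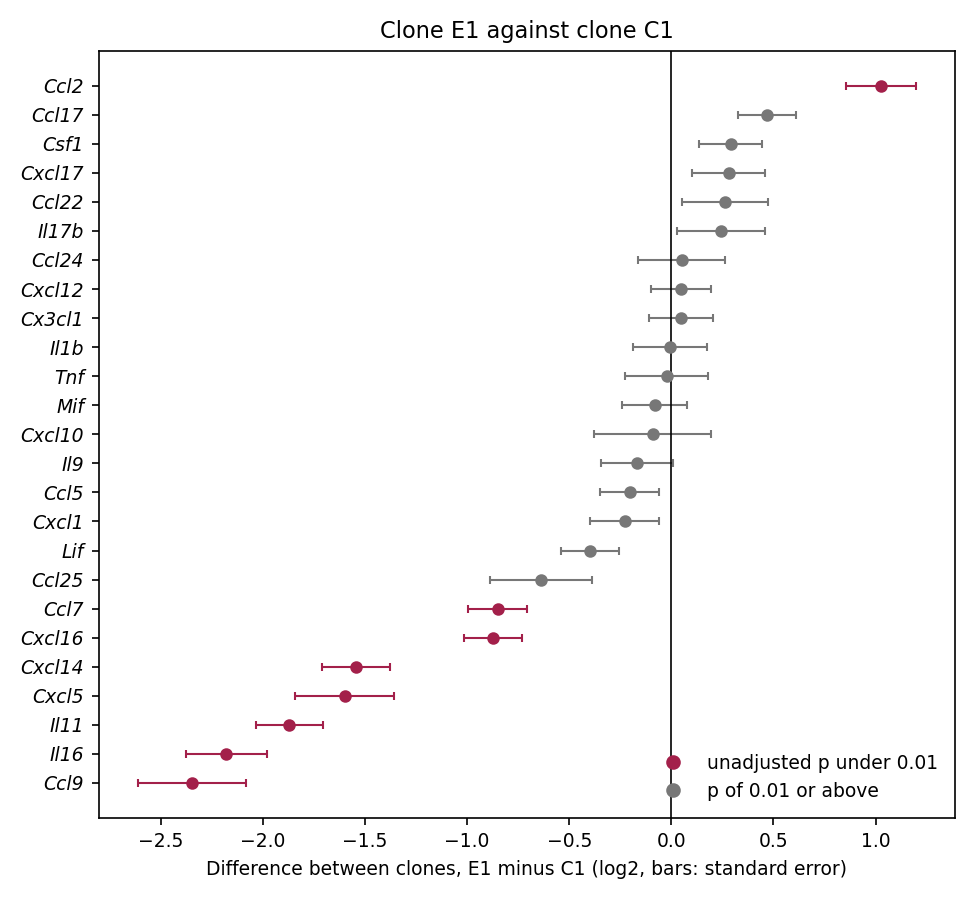
Difference between clones (E1 minus C1, log2) for 25 chemokines, interleukins and related cytokines, with bars of 1 standard error from limma. Dark red points have an unadjusted p under 0.01. Ccl2 is the only one of these above 0, and the other 7 lie between -2.35 and -0.85.

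In the CC group, Ccl9, a chemokine of myeloid cells, had the widest gap. It read 6.49 and 7.27 in C1, control first, and 4.60 and 4.46 in E1, so the clones did not overlap. The difference was -2.35 (SE 0.27), which is 5.09-fold lower in E1 (moderated t -8.86, limma adjusted p = 0.0890). Ccl7 read 5.69 and 5.62 in C1 and 4.83 and 4.77 in E1, a 1.80-fold lower signal (SE 0.14 log2, moderated t -5.98, limma adjusted p = 0.135). Ccl2 went the other way, from 5.56 and 5.72 in C1 to 6.78 and 6.56 in E1. Its difference of 1.03 (SE 0.17) is 2.04-fold higher in E1 (moderated t 6.01, limma adjusted p = 0.135). Ccl2 and Ccl7 both attract monocytes, and no protein-coding gene separates them in the RefSeq gene order of GRCm38.p6. Ccl9 likewise follows Ccl5, which differed by -0.20 (SE 0.14, limma adjusted p = 0.637). Ccl17 was 0.47 higher in E1 (moderated t 3.28, limma adjusted p = 0.274).

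For the ELR group, Cxcl5 read 6.59 and 7.34 in C1 against 5.39 and 5.34 in E1. It was 3.03-fold lower in E1 (log2 difference -1.60, SE 0.24, moderated t -6.59, limma adjusted p = 0.126). Leaving out either E1 array raised its unadjusted p above 0.01. Cxcl3 had values of 3.09 and 3.23 in C1 and 2.31 and 2.02 in E1, all below background, so no difference is given. It was named after its values were seen, and when the Deaf-1 array of C1 was left out its unadjusted p rose above 0.01. Cxcl1 depended on the probe set, as described below.

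Other CXC chemokines were also lower in E1. Cxcl14, an epithelial and fibroblast chemokine, read 8.82 and 8.45 in C1 and 7.11 and 7.08 in E1. The signal was 2.91-fold lower (SE 0.17 log2, moderated t -9.32, limma adjusted p = 0.0862). Cxcl16, the ligand of Cxcr6, was 1.83-fold lower in E1, from 6.68 and 6.53 to 5.82 and 5.64 (moderated t -6.13, limma adjusted p = 0.133). Without the control array of C1 it was no longer under an unadjusted p of 0.01. By contrast Cxcl12 differed by 0.05 (SE 0.15) and Cx3cl1 by 0.05 (SE 0.16).

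Among interleukins, Il11 read 5.96 and 5.87 in C1 and 3.92 and 4.17 in E1. Il11 signals through gp130, the receptor chain shared by the IL-6 family, and its E1 values were close to background. It was 3.66-fold lower in E1 (log2 difference -1.87, SE 0.16, moderated t -11.35, limma adjusted p = 0.0668). Il16 read 6.16 and 6.59 in C1 and 4.27 and 4.12 in E1, 4.53-fold lower (SE 0.20 log2, moderated t -10.98, limma adjusted p = 0.0700). Csf1, Mif, Tnf and Il1b differed between clones by 0.29, -0.08, -0.02 and -0.01, with limma adjusted p from 0.510 to 0.998.

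The cultures also differed in a marker of another cell type. Fabp4, a fatty acid carrier of adipocytes and macrophages, read 2.57 and 3.77 in C1 and 10.59 and 10.56 in E1, while the adipocyte genes Adipoq and Lep were below background on all arrays. The log2 of the summed adipocyte markers (3 of 4 measured) was 4.02 to 4.62 in C1 and 10.57 to 10.60 in E1, where Fabp4 made up nearly all of it. For the leukocyte list (8 of 9 measured) it was 7.15 to 7.30 in C1 and 7.11 to 7.38 in E1, and for the 7 epithelial markers 7.16 to 7.34 and 7.10 to 7.35. The stromal list summed to 15.10 to 15.13 in C1 and 15.28 to 15.35 in E1, and the 4 endothelial genes to 6.91 to 7.29 and 7.59. Such sums follow the brightest probe sets of a list and do not measure the share of a cell type. Among the endothelial genes the brightest was Tek (6.38 and 6.93 in C1, 7.29 and 7.28 in E1). The part of these markers in the clone differences was not tested. Within an RNA extract of a culture, fewer cells of a type and less RNA per cell cannot be told apart.

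For several genes more than 1 probe set was above background on at least 3 arrays, which allowed the same difference to be read again. Ccl9 was -2.35 by the probe set used and -1.84 (SE 0.20, limma adjusted p = 0.0862) by 1448898_at. Cxcl14 was -1.54 and, by 1418457_at, -1.36 (SE 0.15, limma adjusted p = 0.0864). Cxcl16 was -0.87 and -0.96, and Ccl25 -0.64 by each of its probe sets. For these genes the probe sets shared the direction. Ccl9 probe set 1448898_at was below background on the E1 control array (3.76). The second Cxcl16 probe set, 1449195_s_at, was below it on the E1 Deaf-1 array (3.60).

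Cxcl1 and Il16 were split. The Cxcl1 probe set used, 1441855_x_at, differed by -0.23 (SE 0.17, limma adjusted p = 0.649). The others, 1419209_at and 1457644_s_at, differed by -1.70 (SE 0.19, limma adjusted p = 0.0890) and -1.38 (SE 0.14, limma adjusted p = 0.0824), each under an unadjusted 0.01. In Affymetrix names x and s mark probe sets whose oligonucleotides may also match other transcripts. The mean of all Cxcl1 probe sets differed by -1.10. For Il16 the gap of -2.18 came from 1417391_a_at alone. Its probe sets 1448686_at, 1443796_at and 1447814_x_at differed by -0.37, -0.05 and -0.04, and the mean of all 4 by -0.66. The Csf1 and Cxcl12 probe sets lay between -0.30 and 0.29.

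**Figure D4:**
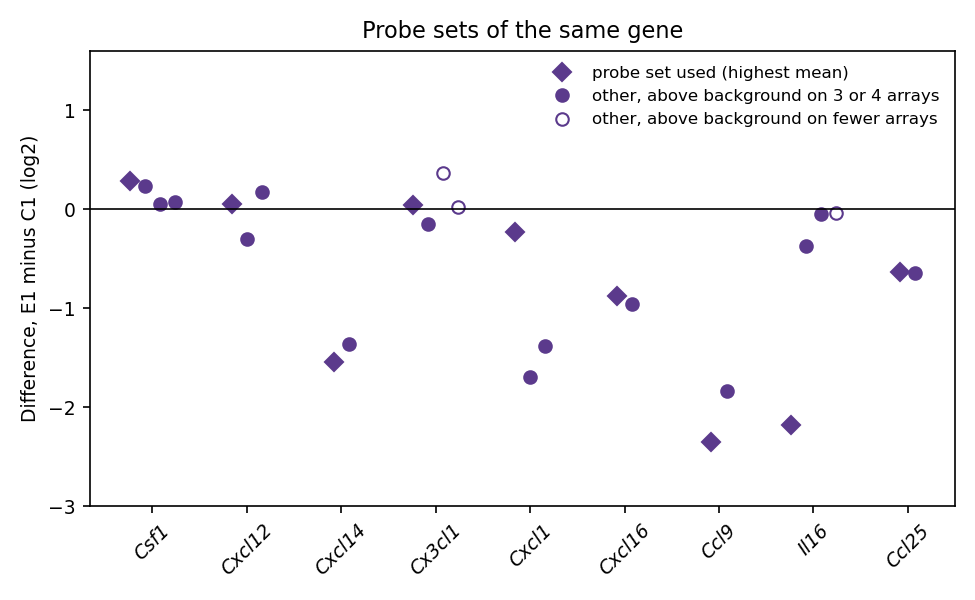
Difference between clones (E1 minus C1, log2) for each probe set of the 9 genes with more than 1 probe set above background on at least 3 arrays. Diamonds are the probe set used, filled circles others above background on at least 3 arrays and open circles others. The Ccl9 and Cxcl14 points lie together below -1, while those of Cxcl1 (-0.23 to -1.70) and Il16 (-2.18 to -0.04) spread apart.

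Promoters are shown because many of these genes are known NF-kB targets and because members of the same cluster differed between clones. RefSeq windows of GRCm38.p6, each from 250 bases before to 50 bases after a transcript start, were matched by symbol for 45 of the 65 genes (52 windows). Both strands were searched for the NF-kB consensus, for the AP-1 site TGANTCA and for TTCGGG, which holds the TTCG core bound by DEAF-1. Among the genes without a window were Ccl2, Ccl7, Cxcl5 and Cxcl16, so the Ccl2 and Ccl7 neighbours could not be compared. Only windows of Ccl9, Cxcl1, Cxcl3 and Il11, chosen because they held a match, are printed below. They run 5′ to 3′ on the strand of the gene, with matches in capitals. The Ccl9 window (chr11:83578587-83578886, minus strand) held an AP-1 and then an NF-kB match. Those of Cxcl1 (chr5:90890995-90891294, plus strand) and Cxcl3 (chr5:90785851-90786150, plus strand) each held the same NF-kB letters, where 2 matches overlap by all but 1 base. One of the Il11 windows (chr7:4778092-4778391, minus strand) held an AP-1 match.
Ccl9: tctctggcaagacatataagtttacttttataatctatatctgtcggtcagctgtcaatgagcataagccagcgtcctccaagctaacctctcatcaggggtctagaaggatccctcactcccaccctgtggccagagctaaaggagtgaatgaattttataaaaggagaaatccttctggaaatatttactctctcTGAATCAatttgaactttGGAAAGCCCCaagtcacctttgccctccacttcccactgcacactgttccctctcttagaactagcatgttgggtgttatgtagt
Cxcl1: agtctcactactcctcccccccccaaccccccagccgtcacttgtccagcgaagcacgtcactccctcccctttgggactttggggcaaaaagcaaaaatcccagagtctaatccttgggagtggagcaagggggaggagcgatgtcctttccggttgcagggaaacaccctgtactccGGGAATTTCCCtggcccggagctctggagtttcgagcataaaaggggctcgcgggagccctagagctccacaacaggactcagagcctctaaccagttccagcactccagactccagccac
Cxcl3: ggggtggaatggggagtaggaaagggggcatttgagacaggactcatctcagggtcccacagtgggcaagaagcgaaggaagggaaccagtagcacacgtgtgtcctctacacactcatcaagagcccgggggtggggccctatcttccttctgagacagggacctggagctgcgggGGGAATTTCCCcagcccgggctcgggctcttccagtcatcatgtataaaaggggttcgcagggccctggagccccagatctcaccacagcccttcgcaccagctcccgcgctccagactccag
Il11: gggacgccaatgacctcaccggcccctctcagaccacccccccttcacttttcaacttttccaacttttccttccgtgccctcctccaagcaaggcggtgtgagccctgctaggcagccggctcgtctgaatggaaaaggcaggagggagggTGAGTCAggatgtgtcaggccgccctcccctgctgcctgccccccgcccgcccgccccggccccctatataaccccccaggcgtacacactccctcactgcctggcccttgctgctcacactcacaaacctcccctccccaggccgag

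The NF-kB consensus was found in 11 of the 52 windows (21.2%), those of Ccl1, Ccl20, Ccl9, Csf1, Cxcl1, Cxcl10, Cxcl2, Cxcl3, Il16, Il6 and Lif, and in 8.5% of 32851 windows in all. The AP-1 site was found in 11 windows (21.2%, against 7.8% in all), among them those of Ccl9, Il11, Il16 and Cxcl10. TTCGGG was found in 3 (5.8%, against 7.0% in all), those of Csf1, Il12a and Il12b. Of the 9 genes with an unadjusted p under 0.01 between clones, 5 had a window. Ccl9, Cxcl3 and Il16 held an NF-kB match, Ccl9, Il11 and Il16 an AP-1 match, and Cxcl14 neither. Il16 had several windows. Its NF-kB match (chr7:83655446-83655745) and its AP-1 match (chr7:83735490-83735789) lay in different ones. Cxcl2 and Il6 also carried an NF-kB match and were below background on all 4 arrays. A match is a run of letters and was not tested as a site.

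Receptors for these ligands were read from a list of 53, of which 48 had a probe set and 23 were above background on all 4 arrays. Of all genes on the array, 61.1% were. For Deaf-1 against control none of the 48 had a limma p under 0.01 and 1, Ccr8, was under 0.05. Ccr8 values lay between 2.63 and 3.26, below background on every array, so no size of difference is given. Cxcr2, Cxcr4, Cxcr6 and Ccr1 were below background on every array. By contrast Ccr2 (4.12 to 4.43), Ackr1 (4.12 to 4.73) and Ackr2 (4.18 to 4.45) were above it on all 4, and Cxcr3 on 2. Csf1r, the receptor for Csf1, read 5.81 to 6.30. Between clones, 4 of the 48 had an unadjusted p under 0.01, where 5.38% of all probe sets did, and 0 an adjusted p under 0.05. Without the retrovirus term 5 had such an adjusted p, against 5.12% of all probe sets.

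Of these 4, 3 were higher in E1. Ackr3, a scavenger receptor for Cxcl12, read 5.17 and 5.87 in C1 and 7.85 and 7.61 in E1, 4.64-fold higher (SE 0.27 log2, moderated t 8.17, limma adjusted p = 0.0990). Csf2ra, the ligand-binding chain for Csf2, read 3.46 and 3.56 in C1, below background, and 5.42 and 4.87 in E1. With C1 set at the background of 3.78, it was at least 2.58-fold higher in E1 (limma adjusted p = 0.108), and it counted as detected through E1 alone. Il6st, which encodes gp130, was 0.67 higher (limma adjusted p = 0.185), while the shared chain Il10rb was lower in E1, at 7.55 and 7.57 in C1 and 6.84 and 6.69 in E1 (difference -0.79, limma adjusted p = 0.148). Tnfrsf1b, Cd44 and Il4ra differed by -0.61, -0.58 and -0.62, and the decoy receptor Il1r2 by 0.57, none under an unadjusted 0.01.

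For the NF-kB pathway, 33 of 37 listed genes were measured and 31 were above background on all arrays, where 61.1% of all genes were. None of the 33 had a limma p under 0.05 for Deaf-1 against control. Between clones 5 had an unadjusted p under 0.01, all lower in E1, where 5.38% of all probe sets were under it in either direction and 2.83% lower in E1. None had an adjusted p under 0.05, and without the retrovirus term 4 did, against 5.12% of all probe sets. The median difference was -0.10, against 0.0045 over all probe sets. Cebpd, a transcription factor of acute inflammation, read 8.42 and 8.84 in C1 and 7.40 and 7.34 in E1, 2.40-fold lower (SE 0.19 log2, moderated t -6.80, limma adjusted p = 0.121). Tnfaip3, an inhibitor that is itself a target of NF-kB, read 5.70 and 5.75 in C1 and 4.74 and 4.29 in E1, 2.32-fold lower (moderated t -6.50, limma adjusted p = 0.126). The kinase adaptor Tab2 and the kinases Ikbkb and Tbk1 differed by -0.95, -0.72 and -0.79. Nfkbiz, a nuclear cofactor, differed by -1.46 (SE 0.34, limma adjusted p = 0.195), and its change with Deaf-1 was 0.84 in C1 and -0.44 in E1. Irak2 and Tnip1 differed by 0.60 and -0.58. The subunit genes Rela and Rel were also lower in E1, each under an unadjusted limma p of 0.05. Rela differed by -0.53. Rel read 3.78 and 4.35 in C1 and 3.38 and 3.23 in E1. It was above background on the Deaf-1 array of C1 alone, so no difference is given. The remaining genes of the list differed less, among them Nfkbia (-0.24), Relb (-0.29), Birc3 (0.05) and Nfkb2 (0.06), none under an unadjusted limma p of 0.05.

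**Figure D5:**
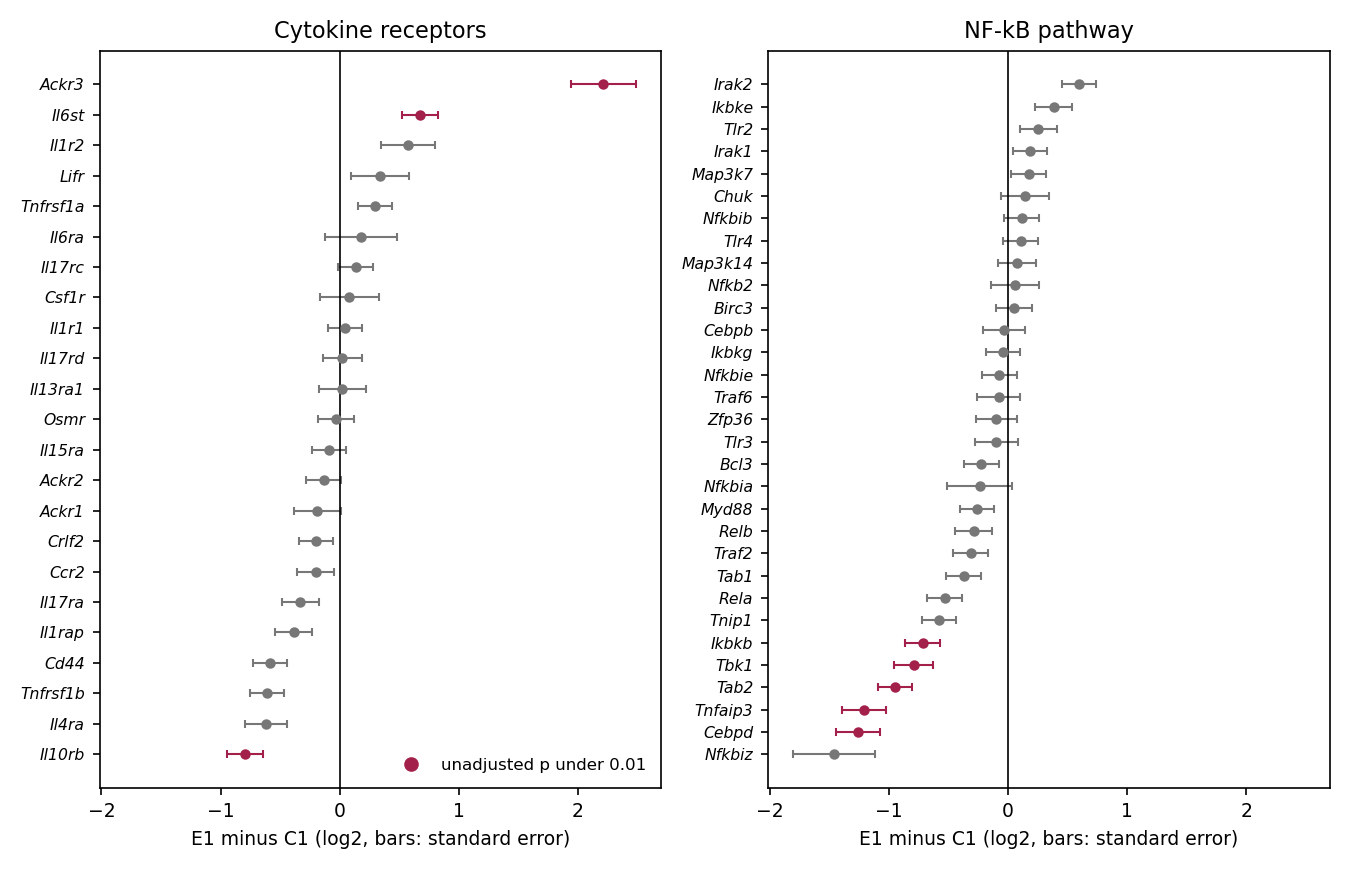
Difference between clones (E1 minus C1, log2) for 23 cytokine receptors and 31 NF-kB pathway genes above background on all 4 arrays, with bars of 1 standard error from limma. Dark red points have an unadjusted p under 0.01. Ackr3 at 2.22 stands at the upper end of the receptors, and Tnfaip3 at -1.21 and Cebpd at -1.26 near the lower end of the NF-kB genes.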

How the data were processed

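The values deposited by the authors are RMA expression on a log2 scale, 1 per probe set and array. RMA and limma are named in the submitters' processing notes, with versions not given in the sources used here, and no value was normalized again. Of 45101 probe sets, 64 controls (AFFX) were left out. Of the other 45037, 34945 had 1 gene symbol in the platform annotation, 932 several and 9160 none. All 65 symbols were unchanged when looked up by gene ID. No genome build is named for the array data, so no positions of probe sets are given.

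For Deaf-1 against control, linear models were fitted (limma 3.58.1, functions lmFit and eBayes, R 4.3.3), two-sided, without a clone term as the study treated clones as replicates, at an unadjusted p under 0.01. Clone E1 was compared with C1 with a term for the retrovirus, at a Benjamini-Hochberg adjusted p under 0.05 over all 45037 probe sets. The count at an unadjusted p under 0.01 was added after the data were seen. The labels pair the arrays by clone, and the deviations of the arrays of a clone from their group means correlated at 0.54 across probe sets. The fits were tested on simulated data.

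Genes were named if above background on all 4 arrays or on both arrays of 1 clone, with up to 8 members of the receptor and NF-kB lists by moderated t and any that passed a call. The genes and lists were chosen with earlier results of these data known. Genes below background, and list members outside this rule, were named after their values were seen. Arrays of 2 clones, 1 per clone and retrovirus, limit the precision.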

Additional observations from a re-analysis of the deposited data

Results flagged for a closer look

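In 13 of the 20 genes above background on all 4 arrays, the array with Deaf-1 lay above its control in one clone and below it in the other. The change in E1 minus the change in C1 was -0.28 for Mif, -0.81 for Cxcl5, -0.39 for Ccl2, -0.92 for Ccl9, -0.57 for Il16, -1.02 for Cxcl10 and -0.85 for Ccl25, each higher with Deaf-1 in C1 and lower in E1. It was 0.24 for Csf1, 0.36 for Cxcl1, 0.34 for Il11, 0.59 for Tnf, 0.66 for Ccl24 and 0.46 for Il1b, each lower in C1 and higher in E1. With 1 array per clone and retrovirus the difference between clones was not tested. Over all probe sets only 39.3% shared a direction, so opposite directions were the more frequent outcome on these arrays.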

How the results depend on the processing

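For Deaf-1 against control, 0 chemokines and interleukins had an unadjusted p under 0.01 in limma in any of the 13 alternatives, clone as a replicate block (0) and each array left out included. Of the 25 named genes, 18 changed sign in at least 1 alternative, and all but Csf1 and Il11 did so only where an array was left out. For E1 against C1, the 0 genes with an adjusted p under 0.05 became 9 with clone alone, 4 with only probe sets above background, 9 with median centring, 6 with a further quantile normalization, 6 with cyclic loess, 7 with a trend in the prior variance and 8 with the mean of all probe sets of a gene. The count was 0 with a robust prior, without x and s probe sets, and with each array left out, which also dropped the retrovirus term. With clone alone, 5.12% of all probe sets had an adjusted p under 0.05. Shares over all probe sets are not given for the other alternatives, at this limit or the next. Whether the set or the whole array shifted cannot be told from these counts. The count at an unadjusted p under 0.01, 9 as reported, ran from 8 to 11 in all these alternatives, and 6 of the 9 genes were under it in every alternative that held them, the exceptions being Cxcl5, Cxcl16 and Cxcl3. In this comparison 9 named genes changed sign in some alternative, none of them among the 9 under an unadjusted 0.01. Genes above background on all 4 arrays numbered 20, and 18 to 22 with other settings except 12 above the highest Olfr value. The 29 genes with a shared direction became 7 of the 20 above background, 26 with the mean of all probe sets and 25 with cyclic loess. Values near background limit what could be read for the 38 genes below it. The cause of these shifts was not tested.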
